A study of Mus musculus with 10 samples.

Results

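The liver transcriptome of normal young male mice was described from 3 wild-type males out of the 10 animals of a study of HtrA2/Omi, a serine protease of the mitochondrial intermembrane space. The 3 libraries were chosen by their labels alone. All 3 were from C57BL6/N males aged 2 months that carried 2 wild-type alleles of Htra2 (WT/WT), and no treatment is named in their labels. The other 7 animals carried the S400D allele, in 1 copy (3 males) or 2 copies (3 males and 1 female), and they were not used here. The labels number the wild-type males 1 to 3 and give no litter, feeding state or hour of collection, so the spread between them may hold biological and technical parts. With 1 group of 3 animals no test was possible, and all values below are descriptions.

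The liver makes most proteins of blood plasma, clears drugs and steroids, and adjusts the storage and burning of fat and sugar between meals. Nearly all of its RNA comes from hepatocytes, with smaller amounts from sinusoidal endothelial cells, Kupffer cells (the resident macrophages), stellate cells and bile duct cells. Many hepatocyte genes follow feeding, the hour of the day, inflammation or the male pattern of growth hormone release, and these are known sources of difference between livers.

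Each library held between 16696743 and 17264289 expected counts (reads assigned to transcripts by estimation), and 14463 to 14882 of 19271 genes had at least 1 count. The counts of each pair of animals differed far beyond sampling noise (chi-square of 80.4 to 151 per degree of freedom), so they were counted as separate libraries. By genes with a difference of at least 2-fold, males 1 and 2 (307 genes) and males 1 and 3 (279) lay farther apart than males 2 and 3 (120), whereas the chi-square was smallest between males 1 and 3. Levels of different genes were compared in TPM, a share of transcripts scaled to the same total in each sample, which corrects for length. Levels of 1 gene in different animals were compared in CPM, counts scaled to library size with the TMM factors of edgeR. Markers of the labelled tissue were abundant: all 10 hepatocyte markers were past the filter described below and took 13.03%, 11.10% and 11.07% of all TPM in males 1, 2 and 3. Y-linked Ddx3y was at 46.5, 46.5 and 47.1 CPM, and the Y-linked list summed to 103, 129 and 129 CPM. Of 4 Y-linked genes past the filter, 1 differed at least 2-fold between animals, lowest in male 1 and highest in male 3. The share over all genes past the filter was 4.97%. Nnt, which is intact in C57BL/6N and truncated in C57BL/6J mice, was at 153, 119 and 119 CPM, and Htra2 at 16.8, 11.8 and 12 CPM.

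The transcriptome was dominated by few genes. The 10 most abundant genes took 24.6%, 25.6% and 20.7% of all TPM in males 1, 2 and 3, and 50% of TPM was reached with 90, 54 and 90 genes. By contrast, 2034, 1678 and 1948 genes were needed to reach 90%. On mean TPM, 13 genes lay above 10000 TPM and took 25.8% of the total, the 119 genes from 1000 to 10000 TPM took 30.9%, and the 945 genes from 100 to 1000 TPM took 27.9%. Of the genes among the 10 most abundant in any animal, 14 in number, 7 were in that list in all 3 animals. The lists of the 100 most abundant genes shared 83 genes in all 3 animals, out of 120 in any.

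Albumin was the most abundant mRNA in every animal. Alb (gene 11657, GRCm38.p6 chromosome 5, 90460870 to 90476602) encodes the main carrier and osmotic protein of plasma and stood at 57708, 52542 and 52252 TPM, or 5.42% ± 0.307 of all TPM (SD, n = 3). Other carriers followed: Ttr, which carries thyroid hormone and retinol-binding protein, at 16063, 14266 and 13594 TPM, and the iron carrier Trf at 9875, 10808 and 12515 TPM. By CPM, the ratio of the highest to the lowest animal was 1.14 for Alb, 1.19 for Ttr and 1.31 for Trf. The median over all genes past the filter was 1.19. The class of plasma carriers and binding proteins as a whole took 17.6%, 18.9% and 18.8% of TPM. Within it, Serpina1e, an alpha-1 antitrypsin gene known for higher levels in males, stood at 2815, 14064 and 4437 TPM, far higher in male 2 than in the others. The 5 Serpina1 genes resemble each other so closely that reads may be credited to the wrong one. Their sum took 3.12%, 4.70% and 3.72% of TPM.

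Apolipoproteins, the protein parts of lipoproteins, held 4 of the 10 highest mean levels. Apoe, the ligand by which remnants are cleared, was at 35185, 22324 and 23238 TPM, with male 1 above the others. Apoa2 and Apoa1, the main proteins of high-density lipoprotein, were at 27901, 20393 and 23245 TPM and at 14431, 11992 and 11720 TPM. Apoc1 was at 21676, 16024 and 17652 TPM. The class with its assembly factors took 11.1%, 8.40% and 9.07% of TPM. Of its 20 members past the filter, 2 differed at least 2-fold between animals, against 4.97% of all genes past the filter. Among the 2 was Pltp, the phospholipid transfer protein, at 86.9, 23.8 and 47.1 CPM, with male 1 highest and male 2 lowest.

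Major urinary proteins, small carriers of pheromones that mice excrete in urine, are encoded by a tandem cluster that spanned chromosome 4, 59956804 to 62150841, in the genes measured here. They took 6.81%, 16.7% and 7.70% of TPM, with male 2 above both others. Mup22 (chromosome 4, 60817586 to 60821597) ranked second of all genes with 31813, 41784 and 26939 TPM. Mup7 (chromosome 4, 60066469 to 60070475) was at 4186, 37243 and 5858 TPM, Mup14 (chromosome 4, 61300037 to 61304089) at 2223, 20455 and 3493 TPM, and Mup20, which encodes the male pheromone darcin, at 4651, 15182 and 10586 TPM. Male 2 was highest for each of these 4 genes, while male 1 was lowest for all but Mup22. A gap-free stretch around the start sites of Mup7 and Mup14 is shown (RefSeq, GRCm38.p6, minus strand, chr4:60070430-60070642 and chr4:61304036-61304248). It was chosen from windows of 300 bases as the stretch that scored best for equal over unequal bases. Its likeness is therefore that of a selected part, not of the whole windows. In it, 4 of 213 bases differ (98.1% identical) and are printed as capitals in Mup14.
Mup7: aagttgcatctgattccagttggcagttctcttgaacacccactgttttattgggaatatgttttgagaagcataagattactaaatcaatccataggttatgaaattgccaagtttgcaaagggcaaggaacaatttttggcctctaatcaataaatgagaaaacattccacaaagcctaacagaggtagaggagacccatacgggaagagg
Mup14: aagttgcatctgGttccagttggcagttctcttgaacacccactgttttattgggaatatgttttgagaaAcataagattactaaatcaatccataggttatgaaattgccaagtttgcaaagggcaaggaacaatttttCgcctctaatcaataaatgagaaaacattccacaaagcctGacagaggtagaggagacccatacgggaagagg
Most of this stretch lies before the start sites, and transcript sequences were not compared. If transcripts of the copies share reads, the level of a single Mup gene depends on how the authors' program divided them. The sum over the 22 genes of the list does not depend on that division within the list. It was 31685, 90611 and 36295 CPM, a 2.86-fold range.

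Coagulation factors took 1.98%, 2.04% and 2.70% of TPM, most of it from fibrinogen, whose chains were at 4537, 4730 and 6778 TPM for Fgb, 3460, 3653 and 5397 TPM for Fgg and 2663, 2803 and 3949 TPM for Fga. Male 3 was highest for all 3 chains. Complement took 0.935%, 0.935% and 1.12%, led by C3 at 2888, 3185 and 4342 TPM.

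Among the enzymes, cytochromes P450 of families 1 to 3, which oxidise drugs and steroids, took 2.24%, 1.52% and 1.87% of TPM. Cyp2e1, which oxidises ethanol, led them at 7442, 5263 and 5380 TPM. Glutathione transferases took 1.61%, 1.76% and 1.72%, and antioxidant enzymes 1.71%, 1.41% and 1.60%. Enzymes of amino acid catabolism took 2.42%, 2.48% and 2.59%, and those of the urea cycle and nitrogen disposal 0.998%, 1.18% and 1.32%, led by Ass1 at 3135, 4476 and 4971 TPM. Fatty acid oxidation and ketogenesis took 2.74%, 1.30% and 1.49%, most of it from the fatty acid carrier Fabp1, which was counted in this class and stood at 18271, 8052 and 8903 TPM. Synthesis of fatty acids took 0.392%, 0.439% and 0.696%, and that of cholesterol 0.154%, 0.291% and 0.304%. Cytosolic ribosomal proteins took 4.58%, 4.11% and 5.10%, and OXPHOS subunits (respiratory chain and ATP synthase, encoded in the nucleus) 3.54%, 3.10% and 3.68%. All secreted classes combined, with each gene counted once, took 39.8%, 48.8% and 41.5%.

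**Figure D1:**
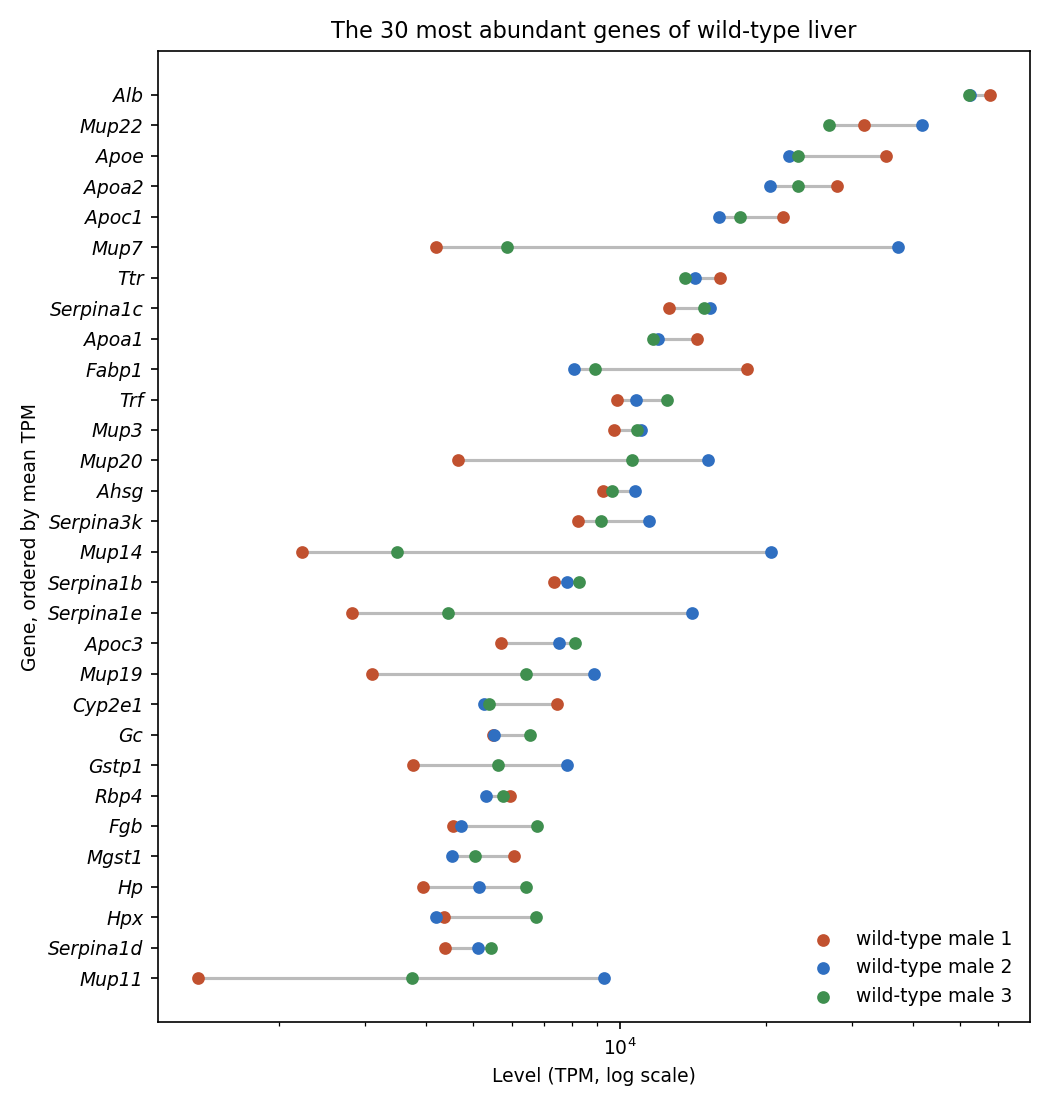
Level in TPM (log axis) of the 30 genes with the highest mean TPM, 1 point for each of the 3 wild-type males and a grey line from the lowest to the highest animal. Alb, Ttr and Rbp4 have points close together, while Mup7, Mup14 and Serpina1e have male 2 far to the right (Mup7 at 37243 TPM against 4186 and 5858).

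**Figure D2:**
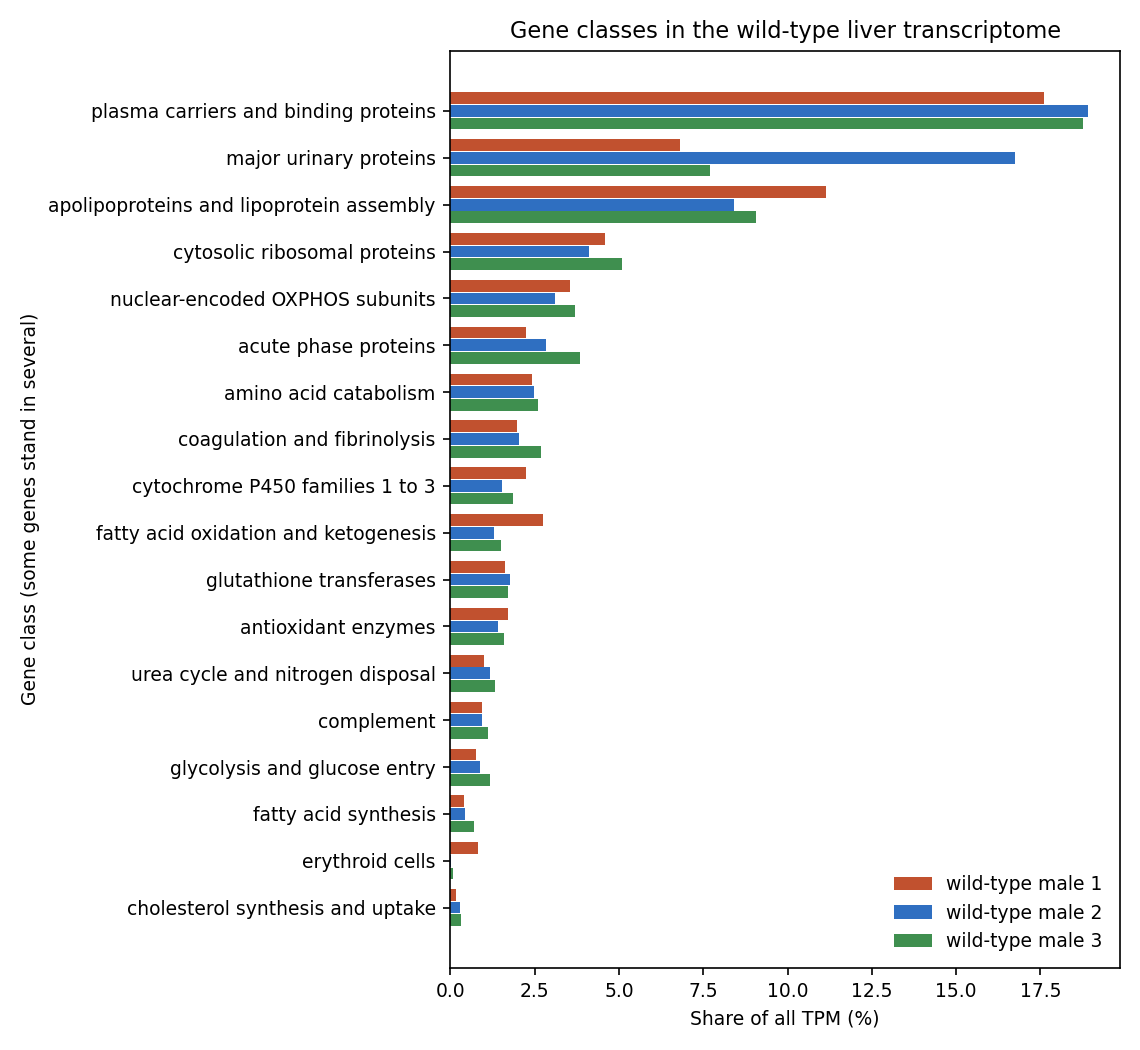
Share of all TPM (%) taken by 18 gene classes in each of the 3 wild-type males, 1 bar per animal, with some genes in more than 1 class. Major urinary proteins take 16.7% in male 2 against 6.81% and 7.70% in males 1 and 3, and erythroid genes 0.816% in male 1 against 0.0274% and 0.0749%.

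Spread between animals was measured as the SD of log2(CPM + 0.5) over the 3 animals, for the 8754 genes with a mean of at least 100 expected counts. These genes took 99.3% of TPM. The other 10517 genes were left out, among them 3648 with 0 counts in all 3 animals, where 3 counts (0.171 to 0.185 CPM) is the limit that a count of 0 allows. The median SD was 0.13, against 0.07 from counting error alone, and the median ratio of the highest to the lowest animal was 1.19. For 4707 genes that ratio was under 1.2. A ratio of at least 2, taken on CPM + 0.5 as are all ratios here, was found for 435 genes, or 4.97% of those past the filter, and such genes are called varying. A ratio of at least 4 was found for 77 genes and of at least 10 for 25. Varying genes made up 23.1% of the 13 genes above 10000 TPM, 13.4% of the 119 between 1000 and 10000 TPM, 5.50% of those from 100 to 1000 TPM, 3.78% of those from 10 to 100 TPM and 5.94% of those from 1 to 10 TPM that passed the filter. The last bin held 202 of the 435 varying genes.

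The animals did not contribute equally. Among all genes past the filter, males 1, 2 and 3 were highest at 2.64%, 1.44% and 0.891% with a ratio of at least 2 (231, 126 and 78 genes), and lowest at 1.72%, 1.47% and 1.77% (151, 129 and 155 genes). Male 1 lay farthest from the middle animal for 268 of the 435 varying genes (61.6%), against 40.2% of all genes past the filter. By this count and by the 2-fold differences between pairs male 1 stands apart, and counts of varying members that rest on it are given below with the count between males 2 and 3 only. Of all genes past the filter, 1.37% differed at least 2-fold between males 2 and 3. The share was 3.51% between males 1 and 2 and 3.19% between males 1 and 3. In a short list, a count of 0 between males 2 and 3 is therefore near the background.

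**Figure D3:**
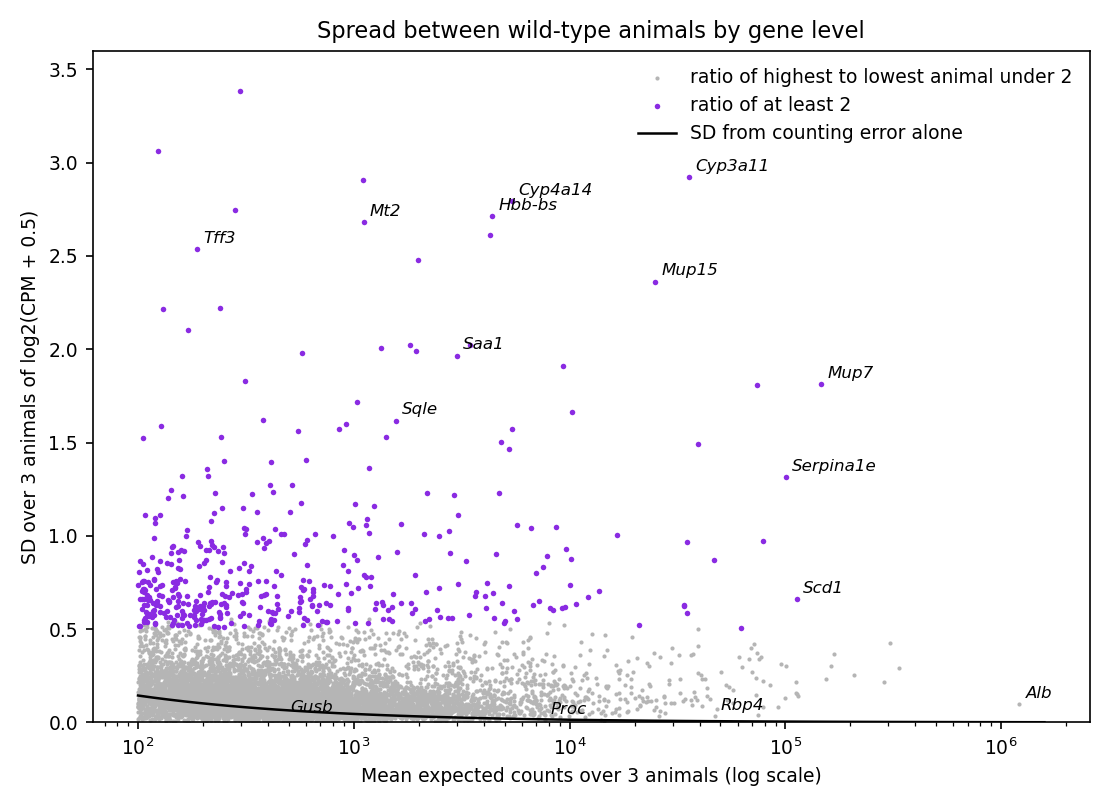
SD over the 3 wild-type males of log2(CPM + 0.5) against mean expected counts (log axis) for the 8754 genes past the filter, with the 435 genes of ratio 2 or more in purple and the SD from counting error alone as a black line. Most genes lie low (median SD 0.13), while Cyp3a11, Mup15 and Mup7 combine high counts with a large spread.

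Cyp3a11 combined a high level with the widest spread among the 100 most abundant genes. Cyp3a11 (gene 13112, chromosome 5, 145854607 to 145879854) encodes the main steroid and drug oxidising P450 of mouse liver and was at 3158, 91.3 and 2971 CPM, a 34.4-fold range with an SD of 2.92. Males 1 and 3 were alike, and male 2 was low. Its relative Cyp3a59 had the same order, at 92.6, 10.4 and 76.7 CPM. Slco1a4, an uptake carrier for bile acids and drugs, was at 83.5, 10.2 and 54.7 CPM. Cyp4a14 and Cyp4a10, fatty acid hydroxylases known as targets of the receptor PPAR-alpha, were at 529, 15.6 and 392 CPM and at 435, 84.8 and 298 CPM. All 5 were lowest in male 2. All 5 varying genes of P450 families 1 to 3 (of 33 past the filter) and all 4 of family 4 (of 12) were lowest in male 2, where 1.47% of all genes past the filter varied in that direction.

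Male 2 was the high animal for genes that are known for higher expression in males. Of the 19 major urinary protein genes past the filter, 14 varied and all 14 were highest in male 2, where 1.44% of all genes varied in that direction. Mup15 had the widest range of them, at 154, 3930 and 499 CPM. Between males 1 and 3 alone, 5 of these 19 genes differed at least 2-fold, against 3.19% of all genes. Of 22 male-biased genes past the filter, some of which are Mup genes, 13 varied and 12 of those were highest in male 2, against the same 1.44%. Selenbp2, which encodes a selenium-binding protein, was at 287, 1420 and 151 CPM, and Gstp1, a glutathione transferase, at 1237, 2963 and 1892 CPM. Cyp7b1, an oxysterol hydroxylase, was at 98.6, 275 and 73.4 CPM, and the complement gene C4a, known as sex-limited protein, at 3.07, 44.1 and 10.0 CPM. Another order was seen for Elovl3, a fatty acid elongase also listed as male-biased, at 98.1, 75.9 and 36.7 CPM. Of 18 female-biased genes listed, 5 were past the filter. Of these 5, 4 varied, 3 of them highest in male 1 and lowest in male 2, against 2.64% and 1.47% of all genes. A 2-fold difference between males 2 and 3 was seen for 3 of the 5, against 1.37% of all genes. The filter uses the mean, so a gene low in 2 animals can pass through 1 high animal, which favours varying genes here. Cyp2b9 passed in this way, at 48.9, 0 and 1.65 CPM. It was at least 264-fold higher in male 1 than in male 2, whose 0 counts allow up to 0.185 CPM (3 counts). Cyp2b9 has the largest SD of the named genes, but with 0 reads in 1 animal that SD depends on the 0.5 that was added. The remaining varying gene, Cyp17a1, was lowest in male 1, at 9.50, 35.4 and 32.9 CPM.

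Outside these classes, Tff3, a secreted peptide of mucous epithelia, was at 1.02, 32.6 and 1.12 CPM, and Onecut1, a hepatocyte transcription factor, at 4.95, 34.2 and 5.12 CPM. In both, males 1 and 3 were alike and male 2 was high. Both passed the filter on the mean only through male 2, which favours varying genes. Cyp7a1, the rate-limiting enzyme of bile acid synthesis, was at 39.6, 134 and 38.7 CPM, again with male 2 high.

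Haemoglobin transcripts set male 1 apart. Hbb-bs (chromosome 7, 103826523 to 103827928) was at 677, 16.5 and 55.2 CPM, and Hba-a2 (chromosome 11, 32296492 to 32297310) at 653, 18.3 and 58.8 CPM. Male 1 was highest and male 2 lowest for all 4 haemoglobin genes past the filter, whose near-identical copies share reads. The sum over all haemoglobin genes was 1804, 47.5 and 156 CPM. Between males 2 and 3 alone, all 4 still differed at least 2-fold, against 1.37% of all genes. Alas2, the erythroid form of the first enzyme of haem synthesis, was at 118, 107 and 62.4 CPM and did not reach a ratio of 2. Whether blood left in the tissue accounts for these levels was not tested.

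Kupffer, endothelial and stellate cell markers were also mostly highest in male 1, where 2.64% of all genes past the filter varied in that direction. Of 15 Kupffer cell and macrophage markers past the filter (18 listed), 14 varied, all with male 1 highest, and the summed list was at 844, 409 and 367 CPM. Cd5l, a macrophage-secreted protein, was at 131, 38.6 and 32.2 CPM, and Csf1r, the receptor for macrophage growth factor, at 70.8, 26.9 and 17.7 CPM. The complement subunits C1qa, C1qb and C1qc, which macrophages make, were at 54.1, 25.7 and 20.3 CPM, at 52.1, 24.7 and 21.7 CPM and at 54.5, 26.6 and 20.8 CPM. In each of these genes male 1 lay above both other males, which were closer to each other. The iron exporter Slc40a1 was the exception, at 119, 111 and 141 CPM.

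Of 14 sinusoidal endothelial markers past the filter (15 listed), 13 varied, all with male 1 highest, and the summed list was at 564, 221 and 242 CPM. The scavenging lectin Clec4g was at 34.8, 14.2 and 16.4 CPM, the water channel Aqp1 at 89.8, 29.9 and 35.7 CPM and the VEGF receptor Kdr at 41.5, 11 and 15.9 CPM. Of 11 stellate cell and matrix genes past the filter (16 listed), 9 varied, again with male 1 highest, and the list summed to 472, 255 and 177 CPM. Collagen Col3a1 was at 48.6, 22.5 and 11.7 CPM, and the proteoglycan gene Dcn at 122, 62.8 and 51.6 CPM. Over the 3 lists in this order, male 1 was highest for 14 of 15, 14 of 14 and 11 of 11 members past the filter, against 32.8% of all genes. Between males 2 and 3, 0 members of each of these 3 lists differed 2-fold, which at 1.37% of all genes is near the background for lists of this size. In whole liver RNA, fewer cells of a type and less RNA per cell cannot be told apart. Of 14 MHC genes past the filter, 4 varied, all highest in male 1, against 2.64% of all genes. Of the same 14, 0 differed at least 2-fold between males 2 and 3, against 1.37% of all genes. The 14 include class II genes, which macrophages and dendritic cells express, with H2-Ab1 at 25.7, 11.2 and 7.06 CPM, while class I H2-K1 was at 1675, 1637 and 1567 CPM.

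Other tissues left little trace. Lymphocyte and plasma cell markers summed to 22.2, 13.1 and 9.95 CPM over 17 genes, and neutrophil and monocyte markers to 7.94, 8.88 and 6.28 CPM over 13. Bile duct markers summed to 78.9, 80.1 and 77.4 CPM, mostly from Spp1 and Slc4a2. Adipoq, Lep, Plin1 and Retn, which define fat tissue, were at 0 counts in all 3 animals. Car3, a carbonic anhydrase of fat and liver that stands in the adipose list, was at 3462, 1739 and 908 CPM, and the rest of that list summed to 18.7, 22.7 and 23.1 CPM. Of 13 pancreatic genes, 5 were at 0 in all animals, and Cela1 led the list at 14.9, 16.0 and 7.06 CPM.

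**Figure D4:**
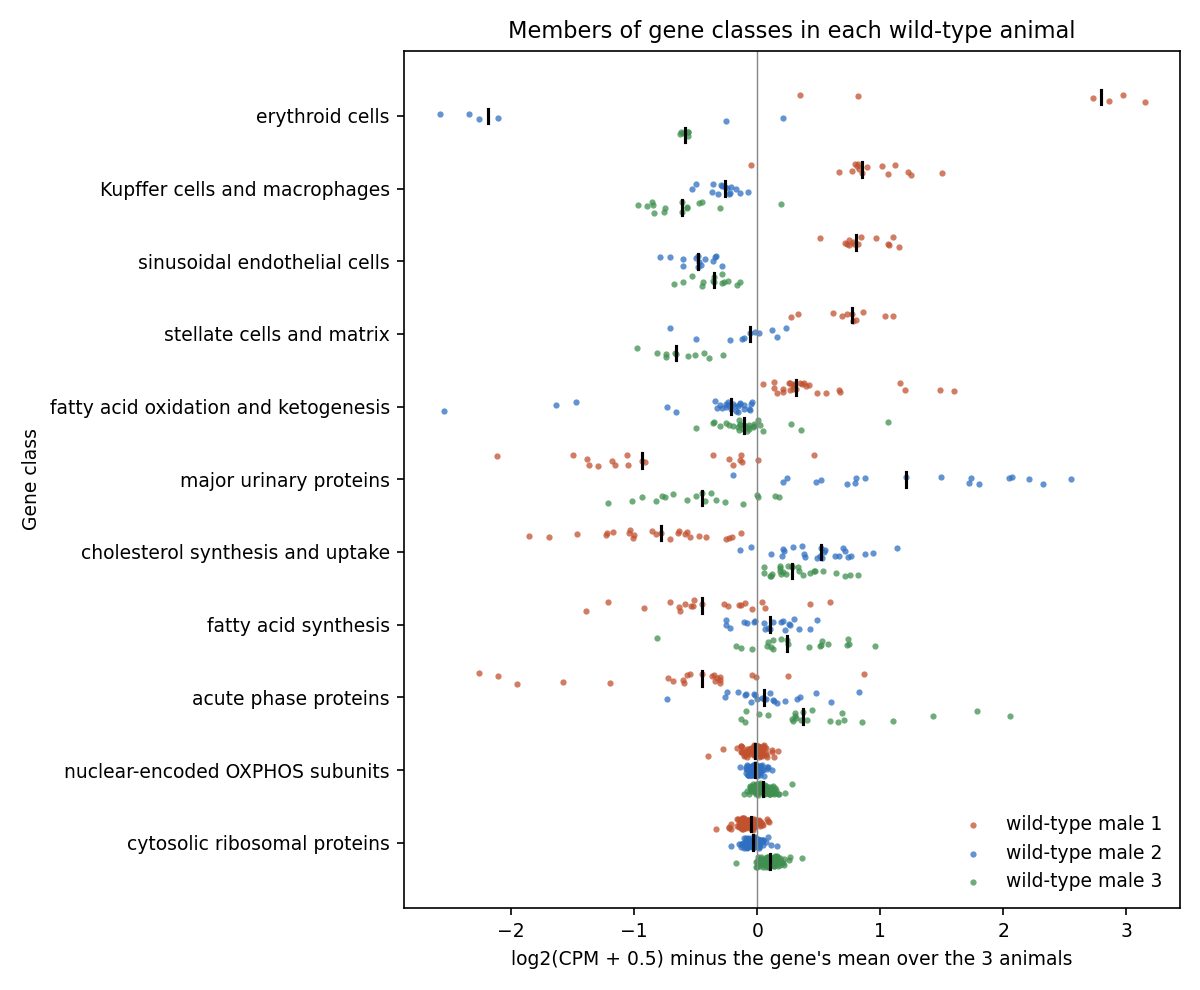
Difference of log2(CPM + 0.5) from the gene's mean over the 3 animals, for the members past the filter of 11 gene classes, 1 point per gene and wild-type male and a black bar at the median. Male 1 lies to the right in erythroid, Kupffer, endothelial and stellate genes and to the left in cholesterol synthesis, male 2 to the right in major urinary proteins, and OXPHOS and ribosomal proteins cluster near 0.

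Lipid metabolism separated male 1 from the other 2 in opposite directions. All 27 genes of fatty acid oxidation and ketogenesis past the filter were highest in male 1, against 32.8% of all genes. Of these 27, 7 varied, against 4.97% of all genes. Fabp1 was at 3087, 1544 and 1519 CPM, the peroxisomal thiolase Acaa1b at 1796, 510 and 569 CPM and the pantetheinase Vnn1 at 46.1, 4.44 and 15.4 CPM. The first 2 set male 1 above both other males, while Vnn1, like Acot1 (21.9, 3.01 and 11.3 CPM), also set male 3 above male 2. Between males 2 and 3, 4 of the 27 differed at least 2-fold, against 1.37% of all genes.

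Genes of cholesterol synthesis and uptake were low in male 1. All 25 past the filter were lowest in male 1, against 39.6% of all genes. Of these 25, 18 varied, against 4.97% of all genes. Sqle, the squalene epoxidase, was at 18.6, 151 and 113 CPM and Fdps, the farnesyl diphosphate synthase, at 74.4, 443 and 428 CPM. Male 2 was highest for 18 of the 25 and male 3 for 7. Of the 25, 0 differed 2-fold between males 2 and 3, against 1.37% of all genes. Aacs, which is not among the 25 and activates acetoacetate for lipid synthesis, was at 19.2, 159 and 77.8 CPM.

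Fatty acid synthesis genes were mostly low in male 1 and high in male 3. Of 21 past the filter, 16 were lowest in male 1 and 13 highest in male 3, against 39.6% and 35.1% of all genes. Of these 21, 9 varied, 8 of them lowest in male 1 and 8 highest in male 3, against 1.72% and 0.891% of all genes. Only 1 of the 21 differed at least 2-fold between males 2 and 3, against 1.37% of all genes. Scd1, the stearoyl-CoA desaturase, was at 4326, 5338 and 10386 CPM, with male 3 high. Acacb, an acetyl-CoA carboxylase, was at 40.2, 143 and 207 CPM and Thrsp, a lipogenic regulator, at 201, 482 and 566 CPM. For these, male 1 was low. Elovl3 had the opposite order. Pklr, the liver pyruvate kinase, was at 206, 635 and 561 CPM. Of 16 glycolytic genes, 3 varied, all lowest in male 1, against 1.72% of all genes. Of the same 16, 0 differed at least 2-fold between males 2 and 3, against 1.37% of all genes. Gluconeogenic Pck1 was at 3115, 2691 and 3546 CPM.

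**Figure D5:**
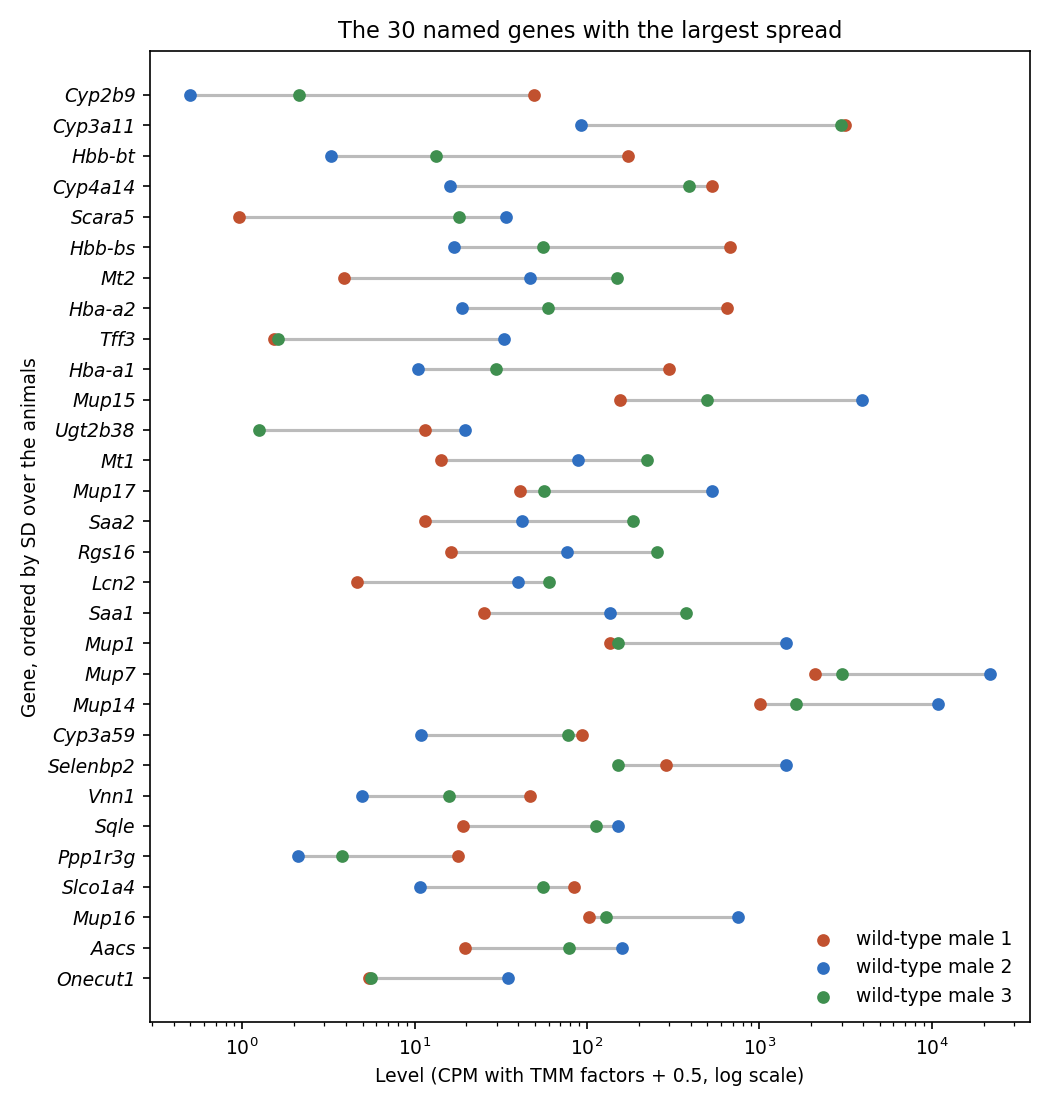
Level (CPM with TMM factors + 0.5, log axis) of the 30 genes with the largest SD among genes past the filter with a mean of at least 5 TPM and a regular name, 1 point per wild-type male. Cyp3a11 and Cyp4a14 have male 2 alone at the left, the haemoglobin genes male 1 alone at the right, and Mt1, Mt2, Saa1 and Saa2 the order male 1, male 2, male 3.

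Acute phase genes, which hepatocytes induce in inflammation, ran from low in male 1 to high in male 3. Of 23 past the filter, 11 varied, 10 of them lowest in male 1 and 9 highest in male 3, against 1.72% and 0.891% of all genes. Serum amyloid genes Saa1 (chromosome 7, 46740497 to 46743181) and Saa2 (chromosome 7, 46751833 to 46754313) were at 24.8, 136 and 375 CPM and at 11, 41.5 and 185 CPM. The animals had the same order for the siderophore-binding Lcn2 (4.15, 39.2 and 59.6 CPM) and the orosomucoid Orm2 (8.93, 38.9 and 60.1 CPM). The iron hormone genes Hamp and Hamp2 did not share it, at 249, 610 and 428 CPM and at 90.2, 29.3 and 44.7 CPM. Between males 2 and 3, 2 of the 23 differed at least 2-fold, against 1.37% of all genes. Saa1 and Saa2 are neighbours transcribed away from each other, and their start regions are shown because both followed 1 order (RefSeq, GRCm38.p6, 250 bases before to 50 after the start, chr7:46742931-46743230 on the minus strand and chr7:46751583-46751882 on the plus strand). In an alignment that allowed gaps, 287 of 300 bases were identical (95.7%), and capitals mark TTGCNNAA, the palindromic core bound by C/EBP factors.
Saa1: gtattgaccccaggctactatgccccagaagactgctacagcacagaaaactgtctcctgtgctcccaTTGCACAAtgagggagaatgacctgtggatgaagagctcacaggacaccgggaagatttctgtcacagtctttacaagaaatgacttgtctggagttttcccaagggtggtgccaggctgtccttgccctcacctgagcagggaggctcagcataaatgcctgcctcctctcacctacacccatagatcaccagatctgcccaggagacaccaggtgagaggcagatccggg
Saa2: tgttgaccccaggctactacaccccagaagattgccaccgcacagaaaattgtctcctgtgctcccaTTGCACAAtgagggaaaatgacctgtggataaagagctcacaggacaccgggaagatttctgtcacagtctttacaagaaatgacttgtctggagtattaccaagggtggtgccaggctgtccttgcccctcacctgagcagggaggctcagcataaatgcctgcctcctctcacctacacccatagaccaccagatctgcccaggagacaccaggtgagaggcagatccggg
Each holds 1 match, at -182 and -183 from the start used for the window, and 10.8% of 32851 promoters of the same length hold one. For Saa1 that start lies inside the gene range given above. A match describes letters, not binding. Reads from the near-identical coding parts of Saa1 and Saa2 may have been divided between them.

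The metallothionein genes Mt1 and Mt2, small proteins that bind zinc and copper and respond to metals and glucocorticoids, had the same order of animals. Mt2 (chromosome 8, 94172618 to 94173567) was at 3.41, 46.4 and 148 CPM and Mt1 (chromosome 8, 94178883 to 94180327) at 13.7, 88.3 and 223 CPM. Male 1 was lowest and male 3 highest for both. They were the only 2 of the 6 genes of the metallothionein and zinc transport list past the filter that varied, against 4.97% of all genes. Both differed at least 2-fold between males 2 and 3 as well, against 1.37% of all genes. Their start regions (RefSeq, GRCm38.p6, plus strand, chr8:94172368-94172667 and chr8:94178839-94179138) are shown with capitals on TGCNCNC in either orientation. This pattern is looser than the core of the metal response element, TGCRCNC, where R is A or G. In Mt2, the marked GGGAGCA (reverse orientation) and TGCTCTC match the looser pattern but not that core.
Mt2: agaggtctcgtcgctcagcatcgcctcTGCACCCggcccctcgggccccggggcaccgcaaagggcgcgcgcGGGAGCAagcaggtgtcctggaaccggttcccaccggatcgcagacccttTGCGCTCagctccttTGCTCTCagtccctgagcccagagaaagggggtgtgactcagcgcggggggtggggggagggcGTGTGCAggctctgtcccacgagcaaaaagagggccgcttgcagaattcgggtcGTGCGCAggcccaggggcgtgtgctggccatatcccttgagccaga
Mt1: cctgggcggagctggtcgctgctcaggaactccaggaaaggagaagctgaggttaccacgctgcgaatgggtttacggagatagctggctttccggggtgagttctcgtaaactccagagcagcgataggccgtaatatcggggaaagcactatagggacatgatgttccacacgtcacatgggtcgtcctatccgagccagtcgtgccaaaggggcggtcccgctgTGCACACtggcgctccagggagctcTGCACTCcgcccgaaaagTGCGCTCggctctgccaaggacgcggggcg
Mt2 holds 6 matches of the looser pattern and Mt1 holds 3. For Mt1 the start used for the window lies inside the gene range given above, while for Mt2 it is the gene start. The windows are thus placed differently, and the 2 counts are not a like comparison. Of 32851 promoters of this length, 51.0% hold at least 1 match, 7.1% at least 3 and 0.23% at least 6. Of the glucocorticoid and stress list, 6 of 13 varied, 4 of them lowest in male 1 and 5 highest in male 3, against 1.72% and 0.891% of all genes. Only 1 of the 13 differed at least 2-fold between males 2 and 3, against 1.37% of all genes. Fkbp5 was at 25.5, 67.5 and 109 CPM. Tat, also in that list, was at 2154, 1585 and 1998 CPM. Rgs16, a regulator of G protein signalling, was at 15.8, 76.2 and 254 CPM.

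Haemoglobin genes and most Kupffer, endothelial and stellate markers were highest in the same male 1 in which Mt1, Mt2, most acute phase genes and all cholesterol genes past the filter were lowest, and their part in these differences was not tested.

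Several housekeeping classes varied little. Among 77 OXPHOS subunits, 82 cytosolic ribosomal proteins, 78 mitochondrial ribosomal proteins, 26 translation factors and 26 genes of the TCA cycle and pyruvate dehydrogenase, 0 reached a ratio of 2. Their median SDs were 0.06, 0.10, 0.10, 0.07 and 0.11, against 0.13 over all genes past the filter. The same count of 0 held for 17 genes of the urea cycle and nitrogen disposal, 22 antioxidant genes, 14 periportal and 16 pericentral genes, which at 4.97% of all genes is near the background for lists of this size. The same is true of the lists of 26 genes above. The antioxidant list had a median SD of 0.085, below that of all genes. The urea cycle, periportal and pericentral lists had median SDs of 0.21, 0.20 and 0.35, above that of all genes. Asl, which makes arginine in the urea cycle, was at 466, 695 and 839 CPM. Among the 100 most abundant genes the steadiest was Rbp4, the plasma carrier of retinol, at 2748, 2843 and 2727 CPM (ratio 1.04). Elongation factor Eef1a1 was at 4331, 4544 and 4344 CPM and the cytochrome oxidase subunit Cox4i1 at 433, 417 and 448 CPM.

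Genes often used as references in PCR differed in their spread. None of 18 reached a ratio of 2. Gusb was at 28.3, 28.3 and 27.4 CPM and Polr2a at 66.4, 68.3 and 64.0 CPM, with ratios of 1.03 and 1.07. Gapdh was at 1657, 2452 and 2887 CPM, a ratio of 1.74, with male 1 lowest and male 3 highest. Actb was at 370, 310 and 268 CPM, highest in male 1.

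Clock genes had a median SD of 0.22, above the 0.13 of all genes past the filter, and male 3 was highest for 16 of 20 and male 1 lowest for 13 of 20, against 35.1% and 39.6% of all genes. Dbp, a clock output factor with a strong daily rhythm, was at 125, 142 and 151 CPM, and Nr1d1, a repressor of the clock loop, at 108, 83.1 and 118 CPM. Of these 20, 2 varied (against 4.97% of all genes), both lowest in male 1 and highest in male 3. They were Ciart at 7.28, 11.8 and 21.5 CPM and Usp2 at 21.8, 27.8 and 49.1 CPM. Of the same 20, 0 differed at least 2-fold between males 2 and 3, against 1.37% of all genes. Immediate early genes were mixed, with Nr4a1 at 22.1, 3.82 and 13.6 CPM and Jund at 51.8, 49.4 and 47.1 CPM.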

How the data were processed

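Liver RNA of 3 wild-type males was analysed. The deposited table gives, per transcript and sample, expected counts and TPM; the authors estimated the expected counts (reads per transcript, not normalised) and scaled TPM to length and to a fixed total per sample. HISAT, Bowtie2 and GRCm38.p6 are named per the submitters' processing notes. Not given in the sources used here were versions of these, the counting program and strand use. The 77712 transcripts were summed to 19271 genes, 19214 of them matched to RefSeq. Of the sums, 94.5% to 94.8% lay within 0.05 of a whole number, and they were rounded for scaling. TMM factors (edgeR 4.0.16, R 4.3.3) were used for scaling only, with DESeq2 1.42.0 size factors as an alternative; pandas 2.3.3 did the rest. Recovery of spread was tested on simulated data. The genes, classes (54 lists; 9 members unmatched) and named genes were chosen with earlier results of these data known. Named were the 30 genes highest in mean TPM, the 30 with the largest SD (mean of at least 5 TPM, regular names), the 10 most and 10 least spread of the 100 most abundant, up to 4 of the highest and 4 of the most spread members per list, reference genes, the 5 highest markers of each other cell type, and Htra2, Nnt and Y-linked genes. A few genes chosen by these rules are left unreported. Libraries of 16696743 to 17264289 counts leave a median counting SD of 0.07 on the log2 scale; intervals and floors cover counting error only.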

Additional observations from a re-analysis of the deposited data

How the results depend on the processing

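No paired analysis was possible because 1 group was described and no test was run. By share of expected counts in place of TPM, which favours long transcripts, the 10 most abundant genes took 18.2% and 155 genes held 50%, secreted proteins took 35.5%, plasma carriers 20.0%, major urinary proteins 5.17%, apolipoproteins 4.31%, ribosomal proteins 1.41% and OXPHOS subunits 1.25%, against means by TPM of 22.6%, 79 genes, 43.4%, 18.4%, 10.4%, 9.53%, 4.59% and 3.44%. The count of varying genes, 435, became 937 with a minimum of 20 counts, 174 with 500, 1190 with no filter beyond a read in each animal, 1135 at a ratio of 1.5 and 77 at a ratio of 4. With 500 counts, 7 Kupffer, 4 endothelial and 2 stellate genes varied, since fewer genes were tested. Leaving out each animal in turn gave 120 to 307 varying genes, the lowest without male 1. It gave 0 to 13 for Kupffer, 0 to 13 for endothelial, 0 to 9 for stellate, 0 to 18 for cholesterol, 1 to 9 for fatty acid synthesis and 2 to 10 for acute phase genes, all lowest without male 1, and 5 to 13 for major urinary proteins, lowest without male 2. Library size alone, DESeq2 factors, TPM and curated transcripts gave 458, 434, 387 to 505 and 493 varying genes, of which 398, 434, 342 to 397 and 340 were among the 435. Library size and TPM put the median of all genes in male 2 at -0.12 and -0.18, against 0.01; the small medians of OXPHOS and ribosomal proteins in male 1 changed sign under both, and so did those of acute phase, glycolytic and metallothionein genes in male 2, that of fatty acid synthesis in male 2 under TPM (-0.06 against 0.15) and that of P450 family 4 in male 2 with curated transcripts (0.01 against -0.28). Of 1605 values of named genes under alternatives, 1553 moved by less than the gene's own SD over the animals, a wide limit for genes named for their spread. Of the varying genes among them, 0 reversed. Changes of sign in genes that did not vary were not counted. Depth limits genes under 100 counts.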
